A study of Mus musculus with 12 samples.

Results

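Sphingolipid genes were followed in MIN6 cells, an insulin-secreting line from a mouse insulinoma that is widely used in place of pancreatic β-cells. The 10 genes are the sphingosine kinases Sphk1 and Sphk2, the sphingosine 1-phosphate lyase Sgpl1 and phosphatase Sgpp1, the serine palmitoyltransferase subunits Sptlc1 and Sptlc2, the ceramide synthases Cers2 and Cers6, the dihydroceramide desaturase Degs1 and the glucosylceramide synthase Ugcg. They are 10 of 49315 genes in the count files, taken by symbol, and all 10 were among the 16844 genes that passed the filter on low counts. Sphk1 was chosen on its measured level in starved cells, which had been seen in these libraries before. Its values in every comparison that uses the starved or the control libraries are therefore given as a description, and only the comparison of Rap with re-added cells is tested for it.

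RNA was sequenced from 12 libraries in 4 groups of 3, all of wild-type MIN6 cells grown in serum-containing medium with glutamine. In the Rap group amino acids were given back together with Rap for 3 h, in the re-added group amino acids alone were given back for 3 h, the starved group had no amino acids for 16 h, and the control group was untreated. The labels do not spell out Rap or give its dose, what the medium without amino acids held, or the length of starvation before re-addition. Whether replicates are separate cultures is not stated either, so the spread behind each p-value may be technical.

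Sphingolipids are made from an amino acid. Serine palmitoyltransferase condenses serine with palmitoyl-CoA, a reductase and a ceramide synthase turn the product into dihydroceramide, and Degs1 desaturates that to ceramide, from which sphingomyelin and glycosphingolipids are built. Ceramide broken down in lysosomes yields sphingosine, which the kinases phosphorylate to sphingosine 1-phosphate (S1P), a signal for cell-surface receptors and the only exit from the pathway, because Sgpl1 cleaves it irreversibly while Sgpp1 returns it to sphingosine. Ceramide accumulation is known for impairing insulin secretion and survival of β-cells.

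Upstream sequence is shown for the kinase with the largest difference in level between groups, for the ceramide synthase that differed most between Rap and control cells, and for the S1P phosphatase. RefSeq start sites on GRCm38.p6 were found for all 10 genes, with 16 entries in total, and the 250 bases before each start were searched on both strands. Sphk1 has 5 such starts, and gene-level counts cannot tell which of them was used. In the lines below, capitals mark the E-box CACGTG and the CCAAT box, and each sequence runs 5′ to 3′ on the gene's strand up to the base before the start. They cover chr11:116532194-116532443 (plus strand, the fourth Sphk1 start), chr2:68861191-68861440 (plus strand) and chr12:75735730-75735979 (minus strand), and none of these bases lies in an annotated exon.
Sphk1: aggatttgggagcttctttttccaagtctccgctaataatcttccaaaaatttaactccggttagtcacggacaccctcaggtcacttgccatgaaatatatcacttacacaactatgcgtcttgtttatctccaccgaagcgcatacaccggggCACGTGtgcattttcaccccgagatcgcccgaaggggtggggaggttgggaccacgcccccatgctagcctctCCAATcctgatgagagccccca
Cers6: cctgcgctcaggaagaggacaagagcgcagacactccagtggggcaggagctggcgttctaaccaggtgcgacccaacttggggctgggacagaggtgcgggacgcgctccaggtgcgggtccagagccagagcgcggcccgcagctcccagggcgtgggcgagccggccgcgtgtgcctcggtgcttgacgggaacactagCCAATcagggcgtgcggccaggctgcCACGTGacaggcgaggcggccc
Sgpp1: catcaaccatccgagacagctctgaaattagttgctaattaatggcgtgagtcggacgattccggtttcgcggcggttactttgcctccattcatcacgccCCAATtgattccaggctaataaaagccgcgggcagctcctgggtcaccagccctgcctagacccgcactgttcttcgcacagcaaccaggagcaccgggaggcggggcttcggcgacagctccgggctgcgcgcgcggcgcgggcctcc
CACGTG, the palindrome bound by basic helix-loop-helix factors of the MiT/TFE and Myc families, occurred before a start of 4 of the 10 genes: Sphk1, Cers2, Cers6 and Degs1. It lies 95 bases before the fourth start of Sphk1 (102 before the fifth), 22 before that of Cers6, 43 before that of Degs1 and 129 before the first of Cers2. By entry these are 5 of 16, with both Sphk1 entries holding the same bases, and starts 1, 2 and 3 of Sphk1 hold none. Of all 32851 promoter entries of the same length, 6.02% hold CACGTG and 33.8% hold CCAAT. These shares are not matched on base composition. The median share of G and C was 52.4% over all entries. It was 51.6% and 52.4% in the Sphk1 entries with CACGTG, 74.8% in that of Cers2, 70.4% in that of Cers6 and 69.6% in that of Degs1. A comparison with entries of like composition was not made. The match of Cers2, with the bases on either side of it, lies wholly within annotated exons. The ATF4 element TGATGNAAT, which 0.816% of all entries hold, was in none of the 16 entries, and these matches are letters only and do not show binding.

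Per transcript length, Degs1 was the most abundant of the 10 genes and Sphk1 the least. Averaged over the 12 libraries, the deposited TPM values were 187 for Degs1, 77.6 for Cers2, 72.4 for Sgpp1, 60.3 for Sptlc1, 44.0 for Sgpl1, 38.9 for Sphk2, 20.3 for Sptlc2, 17.7 for Ugcg, 15.4 for Cers6 and 5.51 for Sphk1. TPM divides reads by exon length before rescaling each library to 1 sum, so it allows genes to be compared with each other. Single libraries ran from 123 to 289 TPM for Degs1 and from 63.1 to 89.0 TPM for Cers2, so these neighbours did not overlap. The same held for Sphk2 at 26.1 to 48.5 TPM and Sptlc2 at 17.4 to 22.7 TPM, whereas the ranges of the other 7 neighbouring pairs in this order overlapped. Reads per library ran from 36 to 610 for Sphk1 and from 453 to 7105 for the other 9 genes.

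Markers of cell types other than β-cells differed between the libraries. A summed level of 33 markers of fibroblasts, leukocytes and endothelium was 138, 134 and 132 CPM (reads scaled to a common library total) in the Rap libraries, 729, 134 and 131 CPM in the re-added, 1748, 143 and 845 CPM in the starved, and 1790.4, 2128 and 2030.5 CPM in the control libraries. None of the 33 was at 0 in any group, and those above 1 CPM in at least 1 library numbered 22 in the Rap, 31 in the re-added, 32 in the starved and 32 in the control group. The 4 lung epithelial markers were high in the same libraries, with sums of 34.6 to 41.4 CPM in Rap, 45.9 to 615 CPM in re-added, 70.5 to 1299 CPM in starved and 1322 to 1574 CPM in control libraries. All 10 β-cell markers were present above 1 CPM in every group, with sums of 46233 to 50679.8 CPM in Rap, 42285 to 47685 CPM in re-added, 44025 to 46315 CPM in starved and 53683 to 70295 CPM in control libraries. These sums are mostly Ins2, Iapp and Chga and hide larger falls of single markers. Slc30a8 had 279 to 420.2 CPM in control and 94.6 to 98.2 CPM in Rap libraries. Slc2a2 had 8.81 to 10.5 CPM in control and 1.01 to 1.54 CPM in starved libraries. Iapp overlapped between the control group and every other group. Of 5 exocrine markers, the acinar genes Prss1 and Ptf1a were at 0 throughout, but the others were not. Cpa1 reached at most 0.0492 CPM, and Cela1 was at 0.106 to 0.568 CPM in every library. Krt19 was high in the same libraries as the lung markers. It had 0.901, 0.754 and 0.733 CPM in Rap and 5.52, 0.852 and 1.02 CPM in re-added libraries. In starved libraries it had 12.3, 0.666 and 5.23 CPM, and in control libraries 12.5, 15.3 and 12.9 CPM. In bulk RNA fewer cells of a type and less RNA per cell cannot be told apart. The labels name only MIN6 cells, and the source of the marker reads was not tested. A pair of further fits therefore used the log2 of the marker sum as a covariate, or contrasted only libraries of like marker sums. These contrasts were the first starved library with the controls, and the second starved library with re-added libraries 2 and 3 and the Rap libraries. The control, Rap and re-added libraries, without re-added replicate 1, all stayed in each such fit for the filter, scaling and spread. No fit of like marker sums was made for re-added or Rap against control cells. All Rap and re-added libraries lay below all control libraries in marker sum. In these comparisons the covariate fit therefore cannot separate group from marker sum well, and a call lost in it has no clear reading.

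Sphk1 was the member that varied most. For single genes, levels are CPM on TMM-scaled library totals, with the mean ± SD of 3 libraries, and differences between groups are log2 fold changes unless given as folds. Sphk1 (chromosome 11, 116530925 to 116536674, plus strand) had 4.99, 4.58 and 4.18 CPM in Rap, 2.09, 1.72 and 1.62 CPM in re-added, 23.7, 31.1 and 23.6 CPM in starved and 4.53, 4.87 and 4.77 CPM in control libraries. The corresponding reads were 92, 83 and 89 in Rap, 43, 36 and 38 in re-added, 610, 581 and 553 in starved and 118, 90 and 99 in control libraries. All starved libraries lay above all others, all re-added libraries lay below all others, and the Rap and control libraries overlapped.

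Starved cells thus held 5.53-fold more Sphk1 RNA than control cells, a log2 fold change of 2.47, which is a description because Sphk1 was chosen for it. Re-added cells were 14.4-fold lower than starved cells and 2.61-fold lower than control cells. Rap cells were 5.69-fold lower than starved cells and differed from control cells by a log2 fold change of -0.04. The starved library with the fewest other-cell markers, replicate 2 at 143 CPM of markers, had the highest Sphk1 value. The log2 fold change between starved and control cells was 2.34 between libraries of like marker sums, with the first starved library alone. It was 2.33 with the marker sum as a covariate. These values are a description too, and the part of other cells in them was not tested.

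The tested comparison for Sphk1 is that of Rap with re-added cells, which differ by the presence of Rap during re-addition. Sphk1 averaged 4.58 ± 0.402 CPM in Rap cells and 1.81 ± 0.249 CPM in re-added cells (SD, n = 3 each). It was 2.53-fold higher in Rap cells, a log2 fold change of 1.34 with a standard error of 0.16 and an adjusted p of 0.000413 in the edgeR quasi-likelihood test over all genes. The log2 fold change was 1.44 between libraries of like marker sums, where re-added replicate 1 was left out.

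Sphk2, the kinase found largely in the nucleus and on organelles, followed another course (chromosome 7, 45709467 to 45718002, minus strand). It had 74.3, 71.8 and 71.3 CPM in Rap, 59.5, 58.8 and 63.5 CPM in re-added, 54.6, 58.2 and 61.1 CPM in starved and 39.5, 47.6 and 41.9 CPM in control libraries. Control libraries were the lowest and Rap libraries the highest, with no overlap of either with another group, while the re-added and starved libraries overlapped. Against control cells Sphk2 was higher in Rap cells by a log2 fold change of 0.75 (SE 0.08, adjusted p = 2.8e-05), in re-added cells by 0.50 (SE 0.08, adjusted p = 0.000542) and in starved cells by 0.43 (SE 0.08, adjusted p = 0.00113). In starved against control libraries of like marker sums the difference was 0.37 with an adjusted p of 0.0601. Rap cells were also higher than starved cells by 0.32 (adjusted p = 0.00681), a call lost with the covariate (0.29, adjusted p = 0.0581), between libraries of like marker sums (0.35, adjusted p = 0.0786) and in the 3 limma fits of TPM (0.19 to 0.20).

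Between Rap and re-added cells Sphk2 differed by 0.26 with an adjusted p of 0.0657, so the call was not made although the groups did not overlap. It was made with DESeq2 (0.24, adjusted p = 0.0184), in a fit of only the 6 libraries compared (0.23, adjusted p = 0.00826) and without control replicate 2 (0.26, adjusted p = 0.0167). Exons of Sphk2 overlap those of Dbp on the other strand over 539 bases, 13.0% of its exon length, and those of Rpl18 over 373 bases, 8.97% of it. The strand setting of the counting is not given in the sources used here, so some reads assigned to Sphk2 may belong to these genes. Dbp averaged 20.4 CPM in Rap, 17.6 CPM in re-added, 24.3 CPM in starved and 40.9 CPM in control cells, and Rpl18 averaged 623 CPM in Rap, 564 CPM in re-added, 557 CPM in starved and 719 CPM in control cells. Their share in the Sphk2 values was not tested.

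On the scale per length, Sphk2 made up most kinase RNA in every library. Sphk1 contributed 5.53%, 5.26% and 4.86% of the kinase TPM in Rap, 2.97%, 2.48% and 2.17% in re-added, 27.4%, 31.7% and 25.2% in starved and 9.07%, 8.17% and 9.02% in control libraries. The TPM sum of both kinases was 51.3, 48.8 and 46.3 in Rap, 42.2, 40.6 and 45.1 in re-added, 56.7, 55.6 and 56.1 in starved and 28.7, 30.4 and 31.1 in control libraries. Every library of the treated groups thus had a higher kinase TPM sum than every control library, and the starved ones the highest. TPM is a share of each library, not an amount of RNA. With limma on log2(TPM + 1) the median log2 fold change of all genes against control cells was 0.12 in starved and re-added cells. It was 0.05 in Rap cells. The kinase sum includes Sphk1, which gives the starved libraries their lead, since Sphk2 alone was highest in Rap cells, and the sum is a description.

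**Figure D1:**
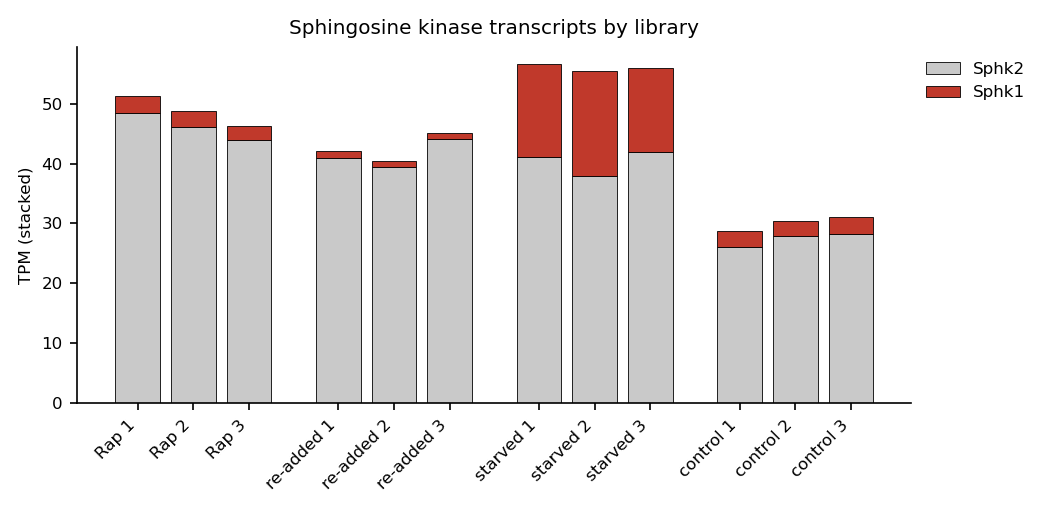
Deposited TPM (vertical axis, a unit per exon length, stacked from 0) of Sphk2 (grey) and Sphk1 (red) in each of the 12 libraries, with replicate numbers on the horizontal axis. Sphk1 makes up 25.2% to 31.7% of the bar in the starved libraries and at most 9.07% in the others.

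The enzymes that remove S1P were both highest in starved cells. Sgpl1, the lyase, lies on chromosome 10 (61098642 to 61147703, minus strand). It had 91.7, 94.3 and 92.5 CPM in Rap, 91.1, 93.4 and 94.4 CPM in re-added, 121, 136 and 123 CPM in starved and 80.9, 65.5 and 81.5 CPM in control libraries. Starved libraries lay above and control libraries below all others, and the Rap and re-added libraries overlapped.

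Sgpl1 rose in starved cells by a log2 fold change of 0.74 against control cells (SE 0.08, adjusted p = 5.4e-05). Against starved cells it fell by 0.45 both in re-added cells (SE 0.08, adjusted p = 0.00133) and in Rap cells (SE 0.08, adjusted p = 0.00151). These 3 calls held with the covariate and between libraries of like marker sums, where the rise in starved cells was 0.69 with an adjusted p of 0.00371. Compared with control cells Sgpl1 was higher by 0.29 in Rap cells (adjusted p = 0.0133) and by 0.29 in re-added cells (adjusted p = 0.0157), but with the marker sum as a covariate these differences were 0.13 (adjusted p = 0.624) and 0.16 (adjusted p = 0.425). Marker sums lay apart in both comparisons, so the covariate fit cannot separate group from marker sum well. The call in re-added cells was also lost without re-added replicate 3 (0.28, adjusted p = 0.0526), both were lost with only the 6 libraries compared (0.24 in Rap and 0.27 in re-added cells), and that in Rap cells was lost in the 3 limma fits of TPM (0.28 to 0.29). Between Rap and re-added cells the log2 fold change was -0.0021 with an adjusted p of 0.991.

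Sgpp1, the phosphatase of the endoplasmic reticulum, lies on chromosome 12 (75714248 to 75735729, minus strand). It had 78.2, 66.9 and 63.9 CPM in Rap, 69.1, 75.7 and 76.0 CPM in re-added, 96.3, 124 and 130.1 CPM in starved and 88.9, 84.7 and 87.3 CPM in control libraries. Starved libraries lay above all others and control libraries above those of both re-addition groups, which overlapped each other. Starved replicate 1, the starved library with the highest marker sum, had the lowest Sgpp1 value of its group.

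Sgpp1 rose in starved cells by 0.42 against control cells (SE 0.11, adjusted p = 0.00875). The difference was 0.31 with the marker sum as a covariate (adjusted p = 0.0576) and 0.17 between libraries of like marker sums (adjusted p = 0.416). Relative to starved cells it fell by 0.66 in re-added cells (SE 0.11, adjusted p = 0.000552) and by 0.75 in Rap cells (SE 0.11, adjusted p = 0.000323). Against control cells it fell by 0.32 in Rap cells (adjusted p = 0.0272), a call lost without control replicate 1 (-0.30), control replicate 3 (-0.32), Rap replicate 2 (-0.29) or Rap replicate 3 (-0.26), and with limma on log2(TPM + 1) and no minimum (-0.32, adjusted p = 0.0561). In re-added cells it differed from control cells by -0.24 (adjusted p = 0.0848), and this passed the test with DESeq2 (-0.29), with upper-quartile scaling (-0.32), with only the 6 libraries (-0.26) and without starved replicate 1 or 3 (-0.26 in both fits), at adjusted p from 0.0138 to 0.0348.

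The summed TPM of Sgpl1 and Sgpp1 was 104, 94.9 and 88.0 in Rap, 102, 106 and 111 in re-added, 152, 161 and 169 in starved and 109, 88.0 and 111 in control libraries. All starved libraries lay above the others in this sum, and the Rap, re-added and control libraries overlapped.

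**Figure D2:**
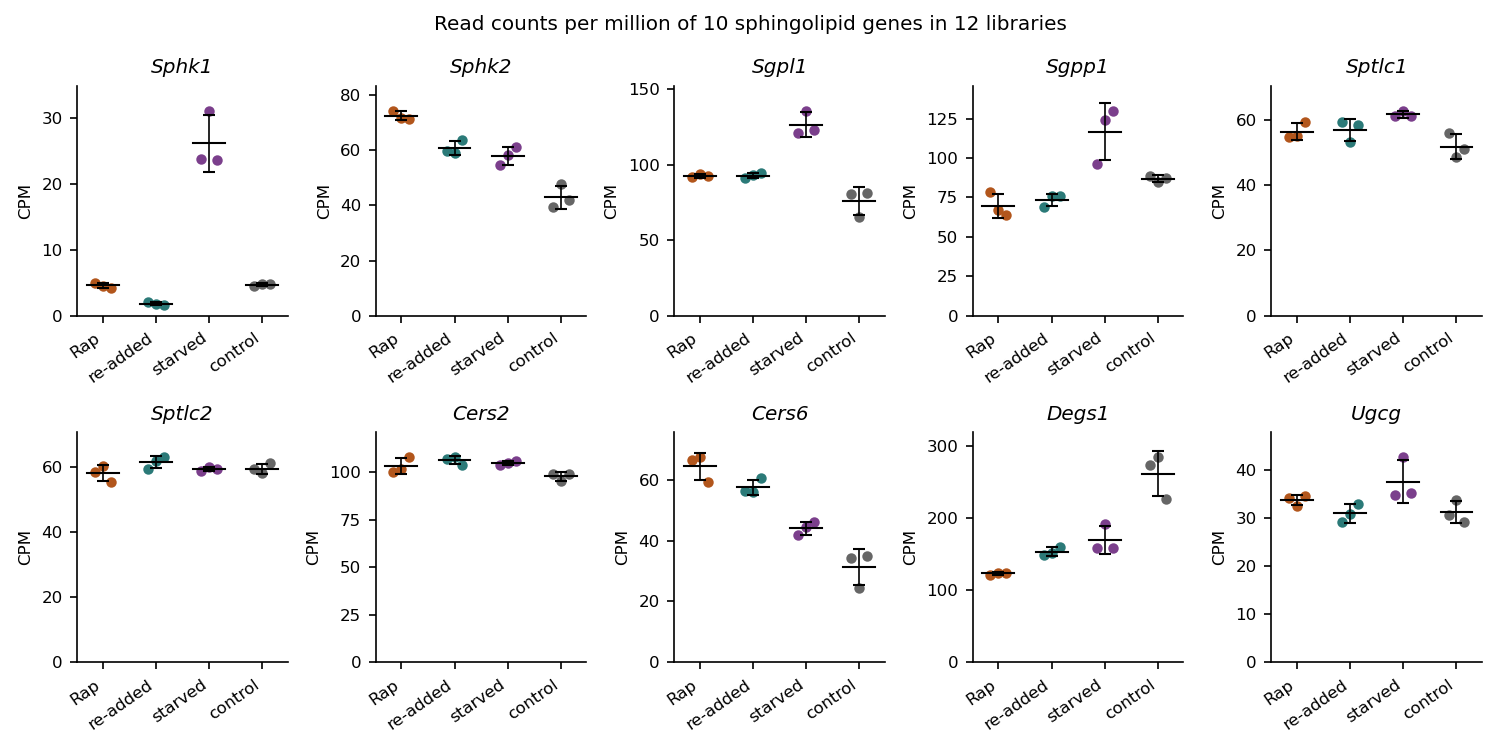
CPM on TMM-scaled totals (vertical axes, from 0) of each of the 10 genes in the Rap, re-added, starved and control groups, with 1 point a library, a horizontal line at the mean and bars of 1 SD (n = 3). Sphk1, Sgpl1 and Sgpp1 are highest in starved cells, Cers6 is lowest and Degs1 highest in control cells, and Sptlc2 and Cers2 stay within narrow ranges.

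Serine palmitoyltransferase, the first enzyme of ceramide synthesis, differed little between groups in the RNA of both subunits. Sptlc2, a catalytic subunit (chromosome 12, 87305058 to 87388355, minus strand), had 58.5, 60.2 and 55.4 CPM in Rap, 59.5, 61.9 and 63.0 CPM in re-added, 58.8, 60.0 and 59.5 CPM in starved and 59.2, 58.0 and 61.1 CPM in control libraries. The groups overlapped, and no comparison of Sptlc2 passed the test. Sptlc1, the partner subunit (chromosome 13, 53332716 to 53377365, minus strand), averaged 56.4 ± 2.59 CPM in Rap, 56.9 ± 3.32 CPM in re-added, 61.7 ± 0.983 CPM in starved and 51.8 ± 3.76 CPM in control cells.

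Sptlc1 rose by 0.25 in starved against control cells (SE 0.07, adjusted p = 0.0163), and its other comparisons did not pass. That call was lost with upper-quartile scaling (0.11, adjusted p = 0.218), with no filter on low counts (0.23, adjusted p = 0.0619), with only the 6 libraries (0.22, adjusted p = 0.126), with the covariate (0.26, adjusted p = 0.0616) and between libraries of like marker sums (0.26, adjusted p = 0.199). It was also lost without starved replicate 1 (0.19), 2 (0.24) or 3 (0.22).

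The ceramide synthases, which choose the fatty acid joined to the sphingoid base, differed from each other. Cers2, which joins very long acyl chains (chromosome 3, 95314791 to 95323599, plus strand), averaged 103 ± 3.91 CPM in Rap, 106 ± 1.87 CPM in re-added, 105 ± 0.689 CPM in starved and 97.9 ± 2.23 CPM in control cells. None of its comparisons passed the test. The difference between starved and control cells was 0.10 (adjusted p = 0.152), although every starved library lay above every control library. It was -0.04 with upper-quartile scaling, but 0.23 and called with limma on log2(TPM + 1) (adjusted p = 0.0476) and on log2(TPM + 0.1) (adjusted p = 0.049). Between re-added and control cells limma on log2(TPM + 1) also made a call (0.22, adjusted p = 0.0499).

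Cers6, which makes ceramide with shorter acyl chains such as that of palmitate (chromosome 2, 68861441 to 69114282, plus strand), had 66.6, 67.5 and 59.4 CPM in Rap, 56.3, 56.0 and 60.5 CPM in re-added, 41.8, 44.5 and 46.0 CPM in starved and 34.2, 24.5 and 35.1 CPM in control libraries. Control libraries were the lowest, starved libraries came next, and both re-addition groups lay above them and overlapped each other. Cers6 was 2.06-fold higher in Rap than in control cells (log2 fold change 1.04, SE 0.12, adjusted p = 5.2e-05) and higher by 0.88 in re-added than in control cells (SE 0.12, adjusted p = 0.000188).

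Against starved cells Cers6 rose by 0.55 in Rap cells (SE 0.12, adjusted p = 0.00342) and by 0.39 in re-added cells (SE 0.12, adjusted p = 0.0214). The call in Rap cells was lost in the 3 limma fits of TPM (0.40 to 0.42, adjusted p from 0.0685 to 0.107), and so was that in re-added cells (0.34 to 0.36, adjusted p from 0.116 to 0.175). The call in re-added cells was also lost without starved replicate 1 (0.39, adjusted p = 0.0513), without re-added replicate 3 (0.35, adjusted p = 0.0766) and between libraries of like marker sums (0.45, adjusted p = 0.121). Starved cells were higher than control cells by 0.49 (SE 0.12, adjusted p = 0.00585), but the call was lost between libraries of like marker sums (0.44, adjusted p = 0.108) and in a fit of only the 6 libraries (0.46, adjusted p = 0.0637). Between Rap and re-added cells the difference was 0.16 (adjusted p = 0.433).

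Degs1, which completes ceramide (chromosome 1, 182275772 to 182282804, minus strand), moved the other way. It had 121, 124 and 124 CPM in Rap, 148, 151 and 159.7 CPM in re-added, 158, 191 and 158 CPM in starved and 273, 284 and 226 CPM in control libraries. Control libraries were the highest and Rap libraries the lowest, with no overlap of either with another group, and the re-added and starved libraries overlapped. Degs1 was 2.12-fold lower in Rap than in control cells, a log2 fold change of -1.08 (SE 0.10, adjusted p = 1.1e-05).

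Against control cells Degs1 fell by 0.77 in re-added cells (SE 0.10, adjusted p = 0.00013) and by 0.62 in starved cells (SE 0.10, adjusted p = 0.000422). The fall in starved cells was the only one among the 9 genes tested in that comparison, and it held in every alternative fit. Against starved cells it fell by 0.46 in Rap cells (SE 0.10, adjusted p = 0.00341), while re-added and starved cells differed by -0.14 (adjusted p = 0.254). Between Rap and re-added cells the difference was -0.31 (SE 0.10) with an adjusted p of 0.0745, and it passed the test in 13 of 22 alternative fits, among them those without control replicate 2 or 3 or without starved replicate 1, 2 or 3 (-0.34 to -0.31, adjusted p from 0.0234 to 0.0446).

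Ugcg, which diverts ceramide to glucosylceramide (chromosome 4, 59189257 to 59222833, plus strand), had 34.2, 32.6 and 34.6 CPM in Rap, 29.1, 30.8 and 33.0 CPM in re-added, 34.9, 42.7 and 35.2 CPM in starved and 30.7, 33.7 and 29.2 CPM in control libraries. Starved libraries lay above all others, by little except for replicate 2. Ugcg rose by 0.27 in starved against control cells (SE 0.09, adjusted p = 0.0416) and fell by 0.28 in re-added against starved cells (SE 0.09, adjusted p = 0.0364).

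Both Ugcg calls depended on single libraries. The first was lost without control replicate 1 or 3, starved replicate 2, re-added replicate 2, or any Rap replicate, with log2 fold changes of 0.17 to 0.27 and adjusted p from 0.0535 to 0.149. The second was lost without starved replicate 2, re-added replicate 1 or 2, or any Rap replicate, with log2 fold changes of -0.28 to -0.20 and adjusted p from 0.0512 to 0.0974. Between libraries of like marker sums they were 0.18 (adjusted p = 0.366) and -0.36 (adjusted p = 0.084). The first was also lost with DESeq2, upper-quartile scaling, no filter, only the 6 libraries and the covariate (0.12 to 0.24), and the second with upper-quartile scaling and only the 6 libraries (-0.22 and -0.25). Between Rap and starved cells Ugcg differed by -0.15 (adjusted p = 0.211), and it was called lower in the 3 limma fits of TPM (-0.27 to -0.26) and with the covariate (-0.30).

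Counted over the 9 genes other than Sphk1, 6 rose and 1 fell in starved against control cells, where 24.3% of all 16844 genes tested rose and 14.6% fell. The risers were Sphk2, Sgpl1, Sgpp1, Sptlc1, Cers6 and Ugcg, and the median log2 fold change of these 9 genes was 0.27, against 0.01 over all genes tested. Between libraries of like marker sums only Sgpl1 and Degs1 were called. Upper-quartile scaling moved the median of all genes to -0.13 and the share of calls that were higher to 44.6%, against 62.5% under TMM. In re-added against starved cells 1 of the 9 genes rose (Cers6) and 3 fell (Sgpl1, Sgpp1 and Ugcg), against 18.4% and 18.8% of all genes, with a median of -0.12 for the 9 genes and -0.06 for all.

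In Rap against re-added cells 1 of 10 genes was higher (Sphk1) and 0 were lower, where 4.55% of all genes were higher and 3.43% lower, and the medians were -0.01 for the 10 genes and 0.00 for all. In Rap against starved cells 2 of the 9 genes were higher (Sphk2 and Cers6) and 3 lower (Sgpl1, Sgpp1 and Degs1), against 20.2% and 23.9% of all genes. In re-added against control cells 3 of the 9 genes were higher (Sphk2, Sgpl1 and Cers6) and 1 was lower (Degs1), against 24.8% and 24.5% of all genes. In Rap against control cells the same counts were 3 higher and 2 lower (Sgpp1 and Degs1), against 27.7% and 25.3%. The shares of called genes in these last comparisons lie near the background, and all comparisons share libraries with others, so their counts are not independent.

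**Figure D3:**
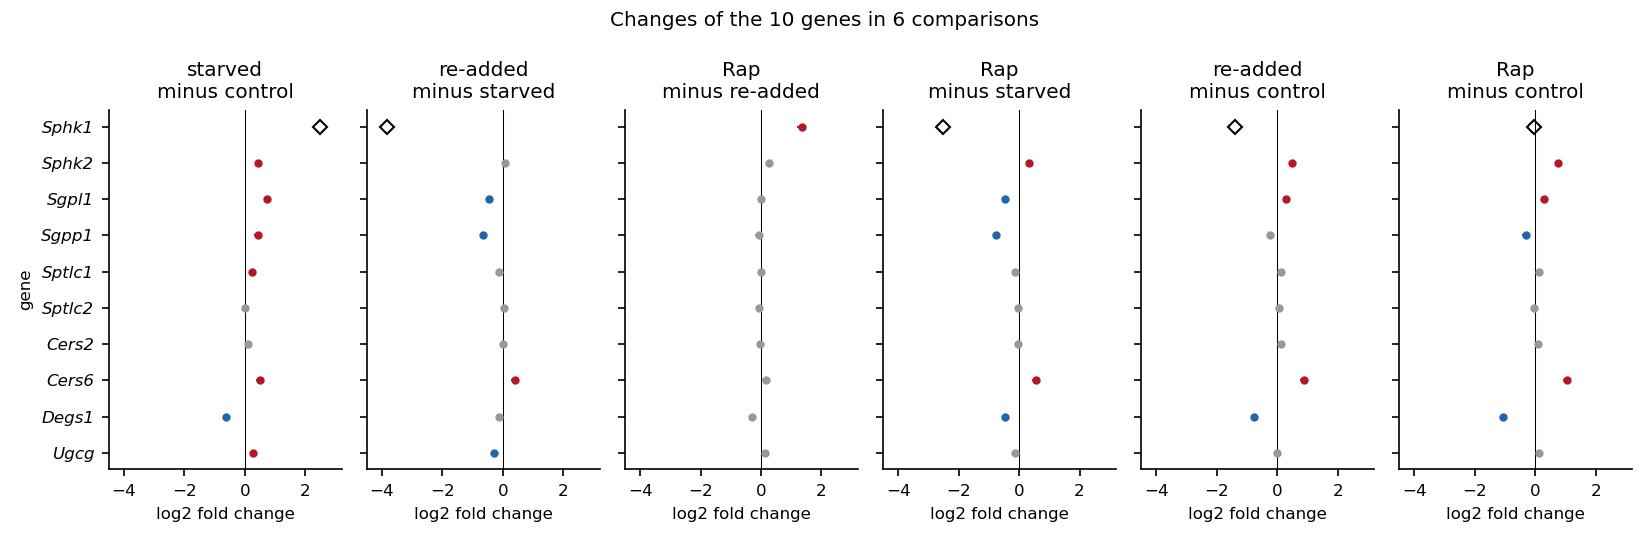
Log2 fold change (horizontal axes) of the 10 genes in 6 comparisons, with bars of 1 standard error that are mostly shorter than the points. Red points were called higher, blue points lower and grey points not called at an adjusted p under 0.05, and open diamonds are Sphk1 values given without a test. Sphk1 spans from -3.85 in re-added minus starved cells to 2.47 in starved minus control cells, and the other 9 genes stay between -1.08 and 1.04.

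A further 60 genes of sphingolipid metabolism were counted from general lists, and 55 of them were tested, Sptlc3, Sptssb, Cers3, Acer1 and Ugt8a having too few counts. In starved against control cells 25 of the 55 rose and 5 fell, where 24.3% of all genes rose and 14.6% fell, with a median log2 fold change of 0.13 against 0.01 for all genes. Between libraries of like marker sums 13 were higher and 3 lower, against 9.99% and 9.22% of all genes in that fit. Of 11 genes of glycosphingolipid breakdown, 8 rose and 0 fell, and of 7 genes of sphingomyelin synthesis and breakdown 5 rose and 0 fell. The de novo list was mixed, with 4 risers and 2 falls among 9 genes.

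Galc, the lysosomal galactosylceramidase, had 80.6, 94.2 and 76.9 CPM in starved and 39.5, 36.0 and 36.9 CPM in control libraries, a log2 fold change of 1.16 (SE 0.09, adjusted p = 2.2e-06). Kdsr, the reductase of the second step of ceramide synthesis, rose by 1.13 in starved cells (SE 0.13, adjusted p = 6.9e-05), and the ceramide synthase Cers1 rose by 1.13 at a low level of 3.45 ± 0.806 CPM in starved and 1.57 ± 0.188 CPM in control cells (adjusted p = 0.00552). Ormdl2, of the family that inhibits serine palmitoyltransferase, fell by 0.56 (adjusted p = 0.000509). Its relatives did not follow, since Ormdl3, named after its value was seen, rose by 0.34 (SE 0.10, adjusted p = 0.0205), at 122 ± 11.4 CPM in starved and 96.7 ± 15.8 CPM in control cells, and Ormdl1 differed by -0.09 (adjusted p = 0.608). Sptssa, a small subunit that activates serine palmitoyltransferase, fell by 0.49 (adjusted p = 0.0063), as did Gal3st1, the sulfotransferase that makes sulfatide (adjusted p = 0.0112).

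In re-added against starved cells 3 of the 55 genes rose and 25 fell, against 18.4% and 18.8% of all genes. Between libraries of like marker sums 1 rose and 14 fell, against 9.37% and 10.8% of all genes. Falls included 5 of 9 genes of the de novo list, 5 of 7 of sphingomyelin metabolism and 6 of 11 of glycosphingolipid breakdown. Kdsr fell by 1.63 (adjusted p = 3.9e-06) and Cers1 fell by 1.31 (adjusted p = 0.00242). The risers were Plpp1, a lipid phosphate phosphatase (0.84, adjusted p = 5.7e-05), Plekha8, which transfers glucosylceramide (0.64, adjusted p = 0.00137), and the ceramide synthase Cers4 (0.41, adjusted p = 0.012).

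In Rap against re-added cells 3 of the 55 genes were higher and 1 was lower, shares near those of 4.55% and 3.43% over all genes, so the counts are no result about the lists. Kdsr had 21.6, 19.5 and 23.0 CPM in Rap, 10.7, 9.58 and 10.5 CPM in re-added, 30.6, 37.3 and 27.7 CPM in starved and 17.0, 13.9 and 12.7 CPM in control libraries. Rap libraries lay above re-added ones without overlap, by a log2 fold change of 1.06 (SE 0.14, adjusted p = 0.000671). The sphingomyelin synthase Sgms2 was higher by 0.47 (adjusted p = 0.0228) and the ganglioside activator Gm2a by 0.29 (adjusted p = 0.00575), and the neutral sphingomyelinase Smpd4 fell by 0.38 (adjusted p = 0.0127). The number called was 2 without re-added replicate 3, Rap replicate 1 or Rap replicate 2, and 7 without control replicate 2.

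**Figure D4:**
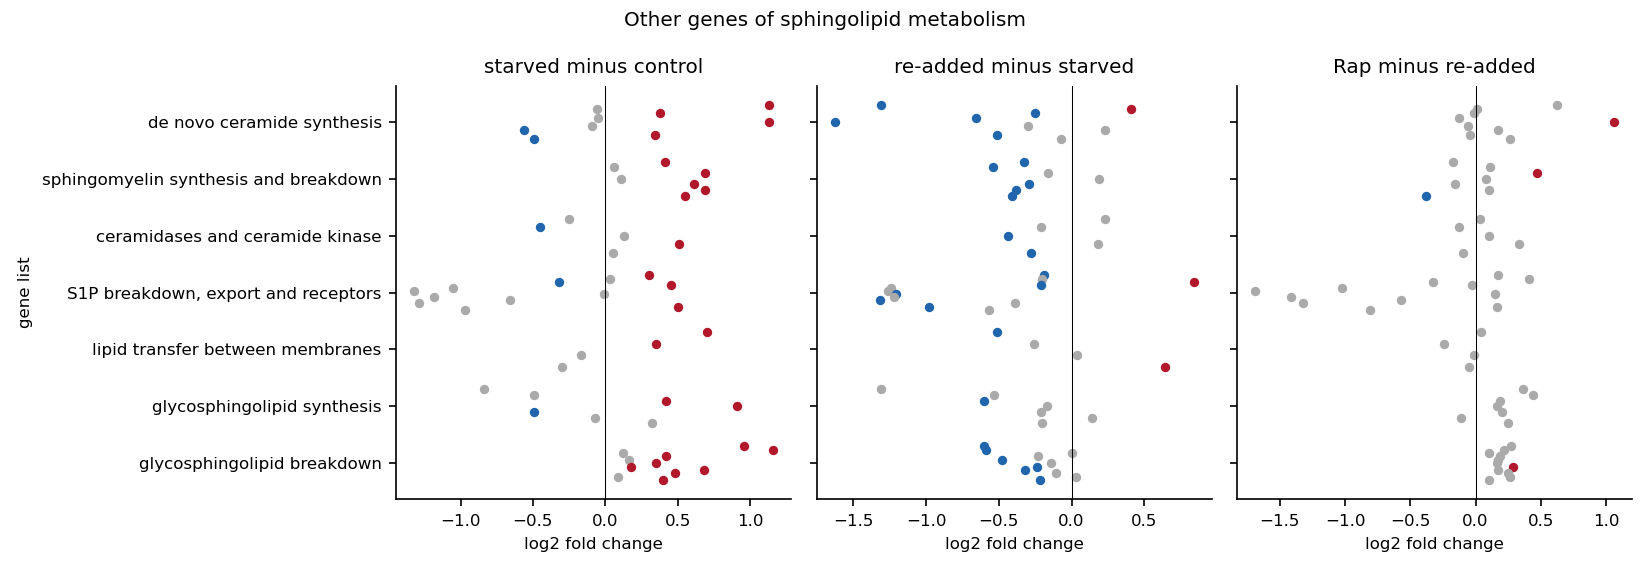
Log2 fold change (horizontal axes) of the 55 tested genes of 7 lists of sphingolipid metabolism (vertical axis) in starved minus control, re-added minus starved and Rap minus re-added cells, 1 point a gene. Red points were called higher, blue lower and grey not called; 25 are red in the first panel, 25 are blue in the second, and 4 are called in the third.

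In Rap and re-added against control cells the largest called falls in the lists were those of S1pr1, S1pr3 and Plpp3. The first are S1P receptors and the last is a lipid phosphatase, and these genes moved with the markers of other cell types. The receptor S1pr1 had 0.813, 0.883 and 0.799 CPM in Rap, 6.32, 0.715 and 1.11 CPM in re-added, 13.4, 0.749 and 5.09 CPM in starved and 14.9, 16.9 and 16.7 CPM in control libraries. Its high libraries are those with high marker sums, given above, in each group. In Rap against control cells S1pr1 fell by 4.27 on the log2 scale (SE 0.95, adjusted p = 0.00322), S1pr3 fell by 3.81 (SE 0.81, adjusted p = 0.0026) and Plpp3 fell by 3.32 (SE 0.69, adjusted p = 0.00235). The part of other cells in these values was not tested. The receptor S1pr4, known from lymphoid cells, fell by 1.32 in re-added against starved cells (adjusted p = 0.0429), at 1.09 ± 0.787 CPM in re-added and 2.68 ± 1.33 CPM in starved cells.

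Over all lists 19 of the 55 genes were higher and 16 lower in Rap against control cells, where 27.7% of all genes were higher and 25.3% lower. In re-added against control cells 16 were higher and 19 lower, against 24.8% and 24.5% of all genes. With the marker sum as a covariate 4 were higher and 3 lower in Rap cells, against 6.24% and 5.85% of all genes, and 2 were higher and 10 lower in re-added cells, against 7.97% and 8.06%. Because the marker sums of both groups lay apart from those of control cells, that fit cannot separate group from marker sum well. Its lower counts are therefore no measure of the part of other cells. The largest rises in Rap against control cells were those of the neutral ceramidase Asah2 (1.02, adjusted p = 0.000752), Sgms2 (0.99, adjusted p = 5.0e-05) and the lactosylceramide synthase B4galt6 (0.90, adjusted p = 0.000237). For re-added against control cells the number called was 23 without re-added replicate 2 and 20 without re-added replicate 3, against 35. In Rap against starved cells 7 were higher and 24 lower, against 20.2% and 23.9% of all genes.

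**Figure D5:**
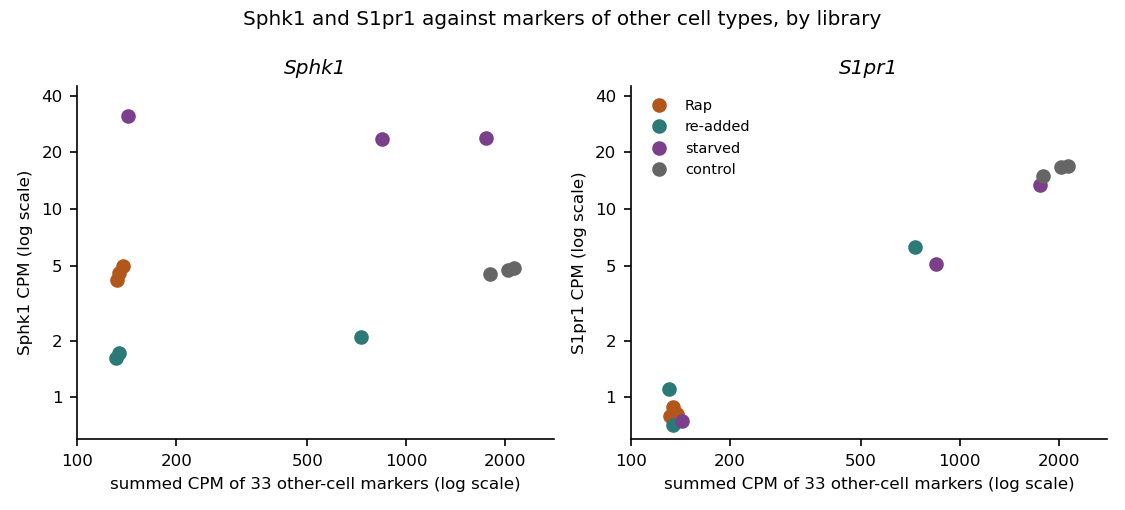
Sphk1 (left) and S1pr1 (right) in CPM (vertical axes, log scale) against the summed CPM of 33 markers of fibroblasts, leukocytes and endothelium (horizontal axes, log scale), 1 point a library, coloured by group. S1pr1 is high only in libraries with marker sums of 729 CPM or more, whereas Sphk1 lies between 23.6 and 31.1 CPM in starved libraries with marker sums from 143 to 1748 CPM.

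The genes whose levels followed Sphk1 most closely over the 12 libraries were sought among 11107 genes of at least 5 CPM, by Pearson's r of log2 CPM. This is a description, because the 4 groups alone give most of the variation and the libraries share scaling. Klf11, Serinc5, Tgif1, Cnppd1 and Ctns each had an r of 0.99, and 283 genes had an r above 0.9. Klf11, a Krüppel-like transcription factor, averaged 12.6 ± 0.290 CPM in Rap, 5.28 ± 0.629 CPM in re-added, 53.0 ± 5.63 CPM in starved and 11.6 ± 0.849 CPM in control cells. Ctns, the lysosomal cystine exporter, averaged 17.0 ± 1.09 CPM in Rap, 12.9 ± 1.07 CPM in re-added, 48.0 ± 1.45 CPM in starved and 21.0 ± 1.19 CPM in control cells.

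Among the other 9 genes, Sgpp1 followed Sphk1 most closely (r = 0.83 over the 12 libraries), then Ugcg (0.74), Sgpl1 (0.71) and Sptlc1 (0.50). The share of all genes with such values was not counted, so they are a description and may be common. Degs1 (0.09), Cers2 (0.06), Sphk2 (-0.05), Sptlc2 (-0.25) and Cers6 (-0.27) did not follow it. Mean CPM of both Sphk1 and Kdsr was highest in starved and lowest in re-added cells. For Cers6 the means of the library values above were 64.5 CPM in Rap, 57.6 CPM in re-added, 44.1 CPM in starved and 31.2 CPM in control cells, and for Degs1 they ran the other way, at 123 CPM in Rap, 153 CPM in re-added, 169 CPM in starved and 261 CPM in control cells. Not all neighbours in these orders passed the test, as given above.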

How the data were processed

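The raw read counts per gene are the authors' own, deposited in a separate table for each library with Ensembl genes, exon coordinates and summed exon length per the file headers. Per the submitters' processing notes the tools were limma 3.46.0 and Subread 2.0.1, whose roles are not stated, on build GRCm38.p6. For the aligner and the strand setting nothing is given in the sources used here. The TPM values deposited by the authors equal counts over exon length, rescaled, within 5.0e-05, and supplied the gene symbols. Library totals ran from 18555958 to 25631056 counts, and every member had at least 453 reads in each library except Sphk1, which had 36 to 43 reads in re-added libraries.

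The test was that of edgeR 4.0.16 in R 4.3.3 (filterByExpr with a minimum count of 10 and a minimum total of 15, TMM scaling, 1 quasi-likelihood fit of 12 libraries and 4 group means, Benjamini-Hochberg over 16844 genes, threshold 0.05). Standard errors are the log2 fold change over the root of the F statistic. The routine was tested on simulated data before use. Alternatives used DESeq2 1.42.0, upper-quartile scaling, no filter, a replicate block, only the 6 libraries compared, each library left out, limma 3.58.1 on log2(TPM + 1) and log2(TPM + 0.1), and the marker fits. In the fits on libraries of like marker sums the single starved library is taken to vary as much as the other groups. Marker sums use raw totals, and their part in other results was not tested.

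The members, gene lists, markers and alternatives were chosen with earlier results of these data known. Named genes are the members, the 3 called genes with the largest change in each direction among list genes of at least 1 CPM, and the 5 genes most correlated with Sphk1. Upstream sequences are from RefSeq.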

Additional observations from a re-analysis of the deposited data

How the results depend on the processing

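Of 26 called results of single members, 14 kept their call and direction in every alternative fit made for their comparison and 0 reversed. The fit on libraries of like marker sums was not made for re-added or Rap minus control cells, whose marker sums lay apart. The kept calls of Sphk2, Cers6 and Degs1 in those comparisons were therefore not put to it. The members called in starved minus control cells numbered 7, but 4 in a fit of only the 6 libraries, 4 with the marker covariate and 2 between libraries of like marker sums. In re-added minus starved cells they numbered 4, and 2 between libraries of like marker sums. In Rap minus re-added cells they numbered 1, but 3 with DESeq2 or only the 6 libraries, 2 with upper-quartile scaling, no filter, the marker covariate or any of the 3 limma fits of TPM, and 1 to 3 with a library left out. In Rap minus control cells they numbered 5, and 3 with limma on log2(TPM + 1) and no minimum. The other list genes called numbered 30 in starved minus control, 28 in re-added minus starved and 31 in Rap minus starved cells, but 16, 15 and 19 between libraries of like marker sums. In Rap minus re-added cells they numbered 4, but 7 with DESeq2, 13 with only the 6 libraries and 2 to 7 with a library left out. Against control cells they numbered 35 in both re-added and Rap cells, but 12 and 7 with the covariate, and 20 to 36 in re-added cells with a library left out. The covariate fit cannot separate group from marker sum well in these comparisons. Fewer libraries enter the fits of like marker sums; the cause of the other changes was not tested.

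Reversals touched only differences that had not passed, or that of Sphk1 in Rap minus control cells, which was not tested. With limma on TPM, Sptlc2 in starved minus control cells was 0.12, Cers2 in re-added minus starved cells -0.01 and Ugcg in re-added minus control cells 0.08 to 0.09. With upper-quartile scaling, Cers2 was -0.04 in starved minus control, 0.02 in Rap minus starved and -0.01 in Rap minus control cells, and Sptlc2 was 0.02 in Rap minus starved and -0.03 in re-added minus control cells. Between libraries of like marker sums Sptlc2 was 0.0019 in starved minus control cells and Cers2 0.01 in Rap minus starved cells, and with the covariate Ugcg was -0.17 in Rap minus control cells. With a library left out, the ranges were -0.06 to 0.02 for Sptlc2 in starved minus control, -0.0031 to 0.05 for Cers2 in re-added minus starved, -0.04 to 0.01 for Sgpl1 and -0.06 to 0.01 for Sptlc1 in Rap minus re-added, -0.06 to 0.05 for Ugcg in re-added minus control, and -0.10 to 0.02 for Sphk1 and -0.08 to 0.0023 for Sptlc2 in Rap minus control cells.

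For Sphk1 in Rap minus re-added cells, all 22 alternatives passed, from 0.77 with limma on log2(TPM + 1) to 1.44. With the replicate block the value was 1.34 (adjusted p = 0.00136), and members called numbered 6 in starved minus control, 4 in re-added minus starved, 1 in Rap minus re-added, 5 in Rap minus starved, 4 in re-added minus control and 5 in Rap minus control cells. The 1 member call lost under the block was Ugcg in starved minus control cells (0.27, adjusted p = 0.0511). Of 18 same-numbered pairs only 3 had deviations correlated above 0.1, with r from -0.31 to 0.84, and 4 of 12 libraries correlated best with their own number. The r of 0.84 was that of starved replicate 1 with re-added replicate 1, each with the highest marker sum of its group. Starved replicate 2 and re-added replicate 3, each with the lowest, had an r of 0.68. High r thus went with marker sums too, so this check cannot decide whether replicate numbers pair libraries. Depth limits Sphk1 in re-added cells, at 36 to 43 reads.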
